A study of Mus musculus with 90 samples.

Results

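The 8 genes described here encode transcription regulators that the mouse ovary uses to build and keep its first follicles: Figla, Nobox, Sohlh1, Sohlh2, Lhx8, Taf4b, Bnc1 and Foxo3. They were taken by symbol from a table of 24422 genes, and all 8 were in it and passed the filter for low counts that left 16511 genes to test. The counts came from 90 libraries, each of a single MII oocyte, 2-cell (2c) embryo or 8-cell (8c) embryo. Wild-type (WT) oocytes came from WT females, and the knockout oocytes from Plag1 knockout (KO) females, in which the zinc-finger transcription factor gene Plag1 is disrupted. Embryos of both groups were sired by WT studs, so that embryos of KO females lacked the maternal Plag1 product but inherited a WT paternal allele, and the KO group is called matPlag1KO at all stages. All females were sexually mature CD-1 mice, superovulated with pregnant mare serum and hCG. Cumulus cells were removed with hyaluronidase, and the animals received no other treatment. Oocytes were picked uncultured 21 to 23 h after hCG, 2c embryos at 45 to 47 h and 8c embryos at 71 to 73 h after fertilization, following culture in KSOM. The labels do not say which female gave which oocyte or embryo. The p-values below therefore measure the spread between single embryos, some of which may share a mother.

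Oocytes are enclosed by somatic cells to form primordial follicles around birth. FIGLA, a basic helix-loop-helix protein of the oocyte, binds E-boxes in the zona pellucida genes and is needed for the follicles to form. SOHLH1 and SOHLH2, related helix-loop-helix proteins, and the homeodomain proteins LHX8 and NOBOX act in the oocyte as these follicles form and start to grow. TAF4B is a gonad-enriched subunit of the general transcription factor TFIID, BNC1 is a zinc-finger protein of germ cells and epithelia, and FOXO3 is the forkhead factor that holds primordial follicles dormant until PI3K-AKT signalling moves it out of the nucleus. The oocytes measured here were ovulated, and the embryos had passed the stage at which these factors have their known ovarian roles.

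Libraries with a median below 1 CPM (counts scaled to the library size) over genes were left out, and 78 of the 90 were kept, 16 WT and 14 matPlag1KO at MII, 11 and 11 at 2c, and 15 and 11 at 8c. The median total of gene counts per library was between 148473 and 649899 across the 6 groups, lowest in the 2c groups. The 8 oocyte markers summed to at least 4149 CPM in every oocyte library and to at most 463 CPM in every 8c library. At 2c they reached 6455 CPM in 1 library, so that their range overlapped that of oocytes, whereas the 2-cell markers were at most 11.6 CPM in oocytes and at least 78.1 CPM at 2c. The median sum of the oocyte markers was 7221 CPM in WT and 19797 CPM in matPlag1KO oocytes, and 1438 and 2710 CPM at 2c. The gap between oocytes lay mainly in plate B of the 2 plates described below. Sums there were 4339 to 7364 CPM in WT and 4149 to 25253 CPM in matPlag1KO oocytes. In plate A they were 4298 to 27906 CPM in WT and 13246 to 27001 CPM in matPlag1KO oocytes. At 2c the 2-cell markers had a median sum of 211 CPM in WT and 530 CPM in matPlag1KO. The median sum of the 8-cell markers at 8c was 1653 CPM in WT and 777 CPM in matPlag1KO, where 3 of the 8 were called lower. The part of these gaps in the genotype results was not tested. Plag1 itself had 326 counts in the 16 WT oocytes and 4 in the 14 matPlag1KO oocytes, and at 2c 1 count in WT and 91 in matPlag1KO. Of 13 markers of granulosa and cumulus cells, 6 had counts in WT oocytes and 8 in matPlag1KO oocytes. Nr5a2 had 1400 and 1232 counts there, Cyp19a1 169 and 153, Fshr 47 and 49 and Kitl 21 and 8, while Foxl2, Amh, Ptx3, Tnfaip6 and Cd44 were at 0 in both. The list had a median sum of 116 CPM (at most 363) in WT oocytes and 120.0 CPM (at most 206) in matPlag1KO oocytes, and its part in the results was not tested. The libraries stood in wells of 2 plates, A and B, and the same well position in the 2 plates gave alike values for some of the members. Wells A5 (MII, high for Foxo3 and Lhx8), D7 (2c, high for Lhx8) and F5 (8c, high for Nobox) stood apart in both plates, and results that rest on them are given with and without these 3 wells. Well B7 (MII) was also high in both plates, for Lhx8 and Nobox. The Lhx8 change to 2c is also given without B7, while the Nobox values that involve oocytes are given with B7 kept in. These wells were picked after their values were seen, so a call that appears only without them is no test.

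All members lie apart from other genes of the table, with no overlapping gene on either strand. In mm9, the build of the deposited table, Figla spans chr6:85967185-85970990 on the plus strand and Nobox chr6:43253673-43259553 on the minus strand. Sohlh1 lies at chr2:25698517-25702768 (minus), Sohlh2 at chr3:54985966-55013879 (plus) and Lhx8 at chr3:153969258-153993524 (minus). Bnc1 lies at chr7:89111548-89137185 (minus) and Foxo3 at chr10:41905592-41996548 (minus).

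Figla and Nobox are shown with the bases just before their annotated starts. Beside them stand those of the 3 zona pellucida genes, which FIGLA is known to regulate. No link between these bases and a change in level was tested. Each line gives the 5′ to 3′ sequence on the gene's strand, read from the mm9 genome, without the bases that the GENCODE annotation places in an exon, and capitals mark E-boxes (CANNTG, found on both strands since the motif is its own reverse complement).
Figla, chr6:85966935-85967184, plus: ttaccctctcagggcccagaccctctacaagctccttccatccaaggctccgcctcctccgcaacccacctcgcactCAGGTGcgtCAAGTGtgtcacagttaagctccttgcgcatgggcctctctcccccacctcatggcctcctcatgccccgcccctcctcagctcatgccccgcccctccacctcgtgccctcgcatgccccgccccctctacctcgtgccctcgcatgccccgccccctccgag
Nobox, chr6:43259562-43259803, minus: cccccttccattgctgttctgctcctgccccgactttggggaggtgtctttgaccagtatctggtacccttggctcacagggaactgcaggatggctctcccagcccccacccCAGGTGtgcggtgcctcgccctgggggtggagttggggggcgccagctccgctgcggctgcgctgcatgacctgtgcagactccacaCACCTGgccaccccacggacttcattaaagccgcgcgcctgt
Zp1, chr19:10995123-10995341, minus: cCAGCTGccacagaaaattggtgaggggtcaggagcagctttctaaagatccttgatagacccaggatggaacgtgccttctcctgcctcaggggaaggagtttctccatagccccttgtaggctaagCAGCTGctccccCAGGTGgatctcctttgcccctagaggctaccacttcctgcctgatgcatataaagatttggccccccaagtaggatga
Zp2, chr7:127288805-127289054, minus: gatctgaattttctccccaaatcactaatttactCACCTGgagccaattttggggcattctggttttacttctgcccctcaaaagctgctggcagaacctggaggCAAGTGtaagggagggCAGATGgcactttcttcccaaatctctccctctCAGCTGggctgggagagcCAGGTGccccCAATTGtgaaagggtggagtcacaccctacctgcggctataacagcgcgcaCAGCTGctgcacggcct
Zp3, chr5:136455725-136455968, plus: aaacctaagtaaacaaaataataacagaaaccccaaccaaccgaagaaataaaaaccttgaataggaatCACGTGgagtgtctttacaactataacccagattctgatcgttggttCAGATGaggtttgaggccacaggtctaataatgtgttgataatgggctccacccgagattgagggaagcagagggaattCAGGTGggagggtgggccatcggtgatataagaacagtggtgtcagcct
The 250 bases before the start held 2 E-boxes in Figla, 2 in Nobox, 3 in Zp1, 7 in Zp2 and 3 in Zp3. An E-box was present in 63.1% of all 24320 such windows of the table's genes, and the median window held 1. Among the members, Sohlh1 had 5 E-boxes in its window and Sohlh2 had 1, whereas Lhx8, Bnc1 and Foxo3 had none. The homeobox core TAATTG and the FOXO core TGTTTAC were each searched on both strands and were found in none of the members' windows, against 6.18% and 2.67% of all windows. Over the whole 250 bases, parts of which the annotation places in exons, the windows of Bnc1 and Foxo3 were 83.6% and 78.8% G and C, above the median of 54.8%, and that of Lhx8 was 46.0%. The promoters of the members thus differed in base composition and E-box number, and these matches are letters in a window, not sites shown to be bound.

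Levels between stages were scaled to the spike-in RNAs added with the reverse transcription mix, and are given as counts per 10000 spike-in counts. They describe transcript per oocyte or embryo, and in a whole embryo fewer expressing cells and less RNA per cell cannot be told apart. Each adjusted p is edgeR's, by quasi-likelihood, with the Benjamini-Hochberg correction over all 16511 genes, and a member is called where this falls under 0.05. From MII to 2c, 6 of the 8 members fell in WT and the same 6 in matPlag1KO, namely Figla, Nobox, Sohlh2, Lhx8, Bnc1 and Foxo3. Falls were the rule at this step, with 51.3% of all tested genes called lower in WT and 50.3% in matPlag1KO. The median log2 change of the 8 members was -3.36 in WT and -3.02 in matPlag1KO, against -1.46 and -1.42 over all tested genes. Taf4b was the exception, with values that were higher at 2c than in oocytes, and Sohlh1 was near the limit of detection throughout. The plot of the members by library shows these levels.

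**Figure D1:**
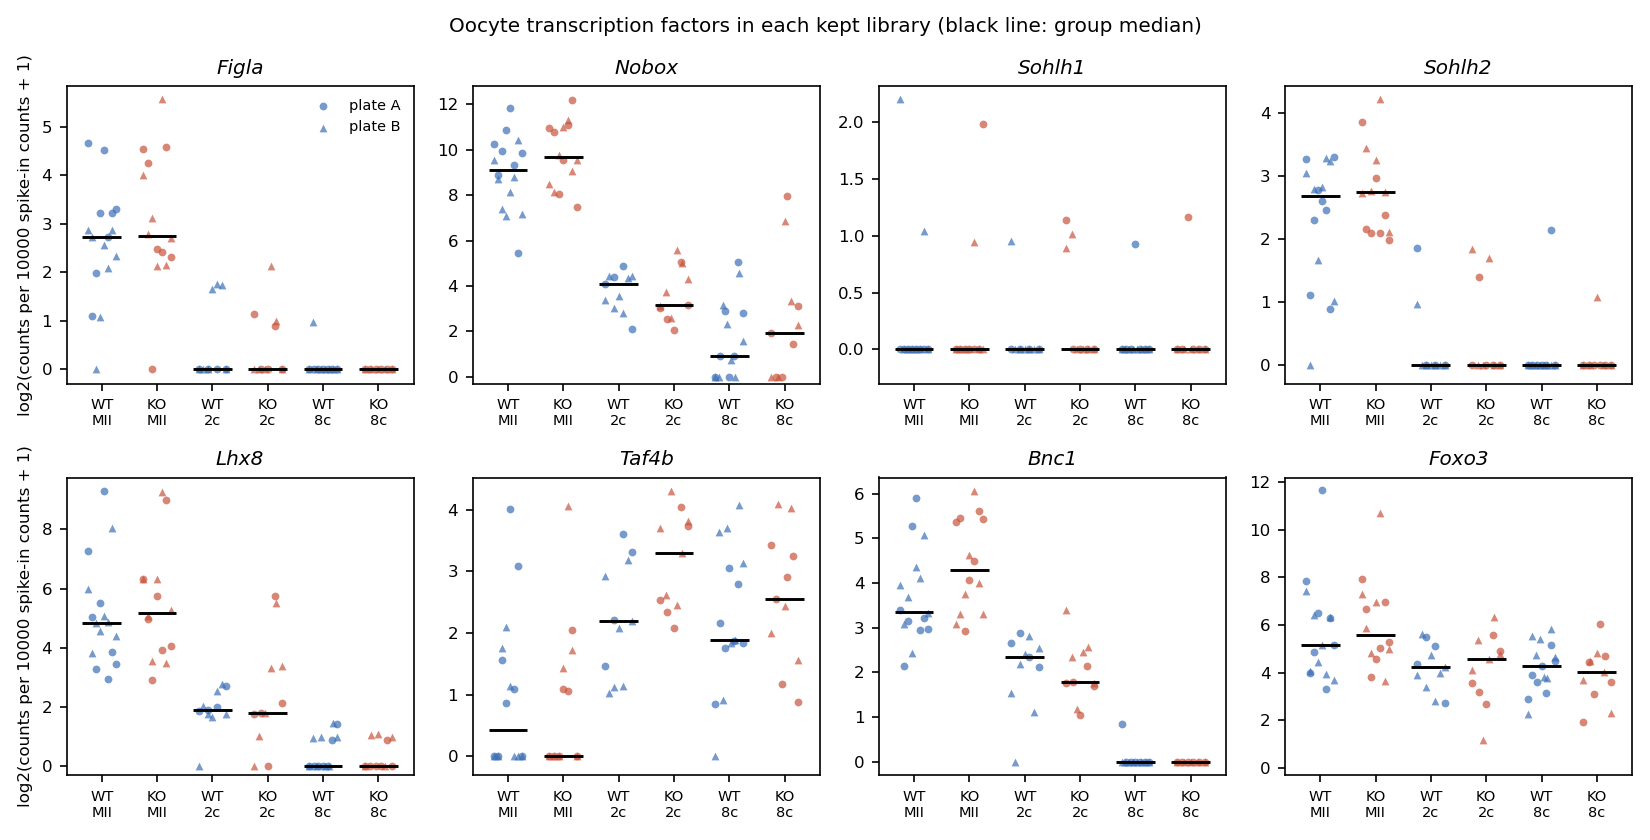
Level of each member in the 78 kept libraries, as log2 of counts per 10000 spike-in counts with 1 added (vertical axis), by genotype and stage (horizontal axis; KO stands for matPlag1KO). Points are libraries, circles plate A and triangles plate B, and black lines are group medians; Nobox, Lhx8, Bnc1, Figla and Sohlh2 were highest in oocytes, Foxo3 was still counted in every 8c library, and Taf4b was higher at 2c than at MII.

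Nobox was present in every oocyte. Counts ran from 52 over a median of 509.5 to 4418 in the 16 WT oocytes, and from 178 over 793 to 4502 in the 14 matPlag1KO oocytes. At 2c every library still held Nobox, with 3 to 28 counts and a median of 17 in WT, and 3 to 42 with a median of 9 in matPlag1KO. The lowest oocyte thus lay above the highest 2c embryo on the raw counts, which compare libraries of unlike depth. Per 10000 spike-in counts the stages did not overlap within a genotype. The lowest oocyte and highest 2c embryo were at 43.4 and 28.3 in WT, and at 175 and 47.1 in matPlag1KO. Across genotypes they overlapped, the lowest WT oocyte lying below the highest matPlag1KO 2c embryo. Per 10000 spike-in counts the mean fell from 849 ± 921 (SD, n = 16) to 14.7 ± 7.82 (n = 11) in WT and from 1375 ± 1265 (n = 14) to 16.1 ± 14.5 (n = 11) in matPlag1KO. The log2 change was -5.84 ± 0.83 (SE) in WT (edgeR, adjusted p = 4.49e-09) and -6.40 ± 0.86 in matPlag1KO (adjusted p = 7.49e-10).

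Lhx8, whose LIM-homeodomain product works with LDB cofactors, was lower than Nobox in counts but was also found in every oocyte. WT oocytes held 6 to 739 counts (median 24.5) and matPlag1KO oocytes 6 to 669 (median 34.5). The upper ends came from few libraries: the 2 highest libraries supplied 66.3% of all Lhx8 counts in WT oocytes and 71.4% in matPlag1KO oocytes. At 2c the range was 0 to 5 counts in WT, with a median of 3, and 0 to 61 in matPlag1KO, with a median of 3, so that the WT groups did not overlap and the matPlag1KO groups did. The log2 change from MII to 2c was -4.72 ± 0.77 in WT (adjusted p = 1.40e-07) and -3.25 ± 0.69 in matPlag1KO (adjusted p = 3.87e-05). Without the wells A5, D7 and F5 the values were -3.93 and -4.43, and without B7 as well they were -3.40 and -3.45, all still called. Scaled by TMM instead, the matPlag1KO fall was -1.09 and missed the threshold (adjusted p = 0.0713).

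Figla was a gene of low counts, with 0 to 28 in WT oocytes (median 5.5) and 0 to 50 in matPlag1KO oocytes (median 5.5). It was counted in 15 of 16 WT and 13 of 14 matPlag1KO oocytes. At 2c it was seen in 3 of 11 WT embryos and 4 of 11 matPlag1KO embryos, never with more than 3 counts. The fall was -3.34 ± 0.69 on the log2 scale in WT (adjusted p = 2.53e-05) and -4.10 ± 0.71 in matPlag1KO (adjusted p = 8.54e-07). Within plate B alone the WT value was -1.91 and was not called (adjusted p = 0.0585), while plate A alone gave -6.44 (adjusted p = 0.000613).

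Sohlh2 was counted in 15 of 16 WT oocytes (0 to 10 counts, median 5) and in all 14 matPlag1KO oocytes (3 to 19 counts, median 5.5). At 2c only 2 of 11 WT and 3 of 11 matPlag1KO embryos held any count, up to 3. Its fall was -3.37 ± 0.69 in WT (adjusted p = 1.91e-05) and -3.20 ± 0.67 in matPlag1KO (adjusted p = 2.61e-05). Sohlh1, its partner gene in the ovary, summed to 5 counts in the 16 WT oocytes and 4 in the 14 matPlag1KO oocytes. It had 1 and 3 counts at 2c and 1 and 1 at 8c. No difference between stages was detectable for Sohlh1 at this depth: the pooled ratio of WT oocytes to WT 2c embryos was 3.24, with an exact counting interval (95%) of 0.362 to 153.

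Bnc1 was present in every oocyte, at 3 to 70 counts in WT, with a median of 10, and 6 to 71 in matPlag1KO, with a median of 17. At 2c, 10 of 11 WT embryos (0 to 7 counts, median 4) and all 11 matPlag1KO embryos (1 to 11 counts, median 3) still held it. These ranges overlapped between stages. Its mean per 10000 spike-in counts went from 15.9 ± 15.0 (n = 16) to 3.70 ± 2.00 (n = 11) in WT and from 25.7 ± 18.8 (n = 14) to 3.47 ± 2.35 (n = 11) in matPlag1KO. The log2 change was -2.07 ± 0.46 in WT (adjusted p = 8.33e-05) and -2.83 ± 0.48 in matPlag1KO (adjusted p = 5.69e-07). Relative to other transcripts Bnc1 changed less: with TMM scaling the WT value was -0.52 (adjusted p = 0.274) and the matPlag1KO value -0.95 (adjusted p = 0.0417).

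Foxo3 was found in every kept library of all 6 groups. WT oocytes held 8 to 3844 counts (median 32) and matPlag1KO oocytes 10 to 1791 (median 48.5), and at 2c the ranges were 5 to 49 (median 15) and 1 to 81 (median 20). The highest oocyte of each genotype was the library in well A5, that of WT in plate A and that of matPlag1KO in plate B, and the next highest oocytes had 267 and 251 counts. The log2 change from MII to 2c was -3.57 ± 0.74 in WT (adjusted p = 2.33e-05) and -2.85 ± 0.72 in matPlag1KO (adjusted p = 0.000467). Without the wells A5, D7 and F5 the fall was smaller and still called, -1.49 in WT (adjusted p = 0.00466) and -2.08 in matPlag1KO (adjusted p = 0.000519). With TMM scaling, which sets Foxo3 against the other transcripts of the embryo, the values were -0.84 (adjusted p = 0.144) and -0.52 (adjusted p = 0.399), and neither was called.

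Taf4b (chr18:14941754-15058868, plus strand, mm9) moved the other way. It was counted in 8 of 16 WT oocytes (0 to 18 counts) and 6 of 14 matPlag1KO oocytes (0 to 17 counts), but in every 2c embryo, at 1 to 11 counts in WT, with a median of 3, and 3 to 18 in matPlag1KO, with a median of 9. The mean per 10000 spike-in counts was 2.09 ± 4.00 (n = 16) and 4.57 ± 3.53 (n = 11) in WT, and 1.79 ± 4.14 (n = 14) and 9.30 ± 5.33 (n = 11) in matPlag1KO. The rise was called in matPlag1KO, at 2.28 ± 0.66 (adjusted p = 0.00184), where 13.5% of all tested genes were called higher. The WT value of 1.05 ± 0.63 was not called (adjusted p = 0.139), where 14.1% were called higher. Without the WT oocyte of well A5, which held 18 of the 37 Taf4b counts of its group, the WT value was 1.79 and was called (adjusted p = 0.0119). With TMM scaling both were called, at 2.62 in WT and 4.36 in matPlag1KO, and in plate B alone neither was (1.98, adjusted p = 0.0655, and 1.81, adjusted p = 0.0582). The genotype difference in this step was tested as an interaction with TMM scaling, not the spike-in scaling of the changes above. It was 1.74 ± 0.83 and was not called (adjusted p = 0.248).

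**Figure D2:**
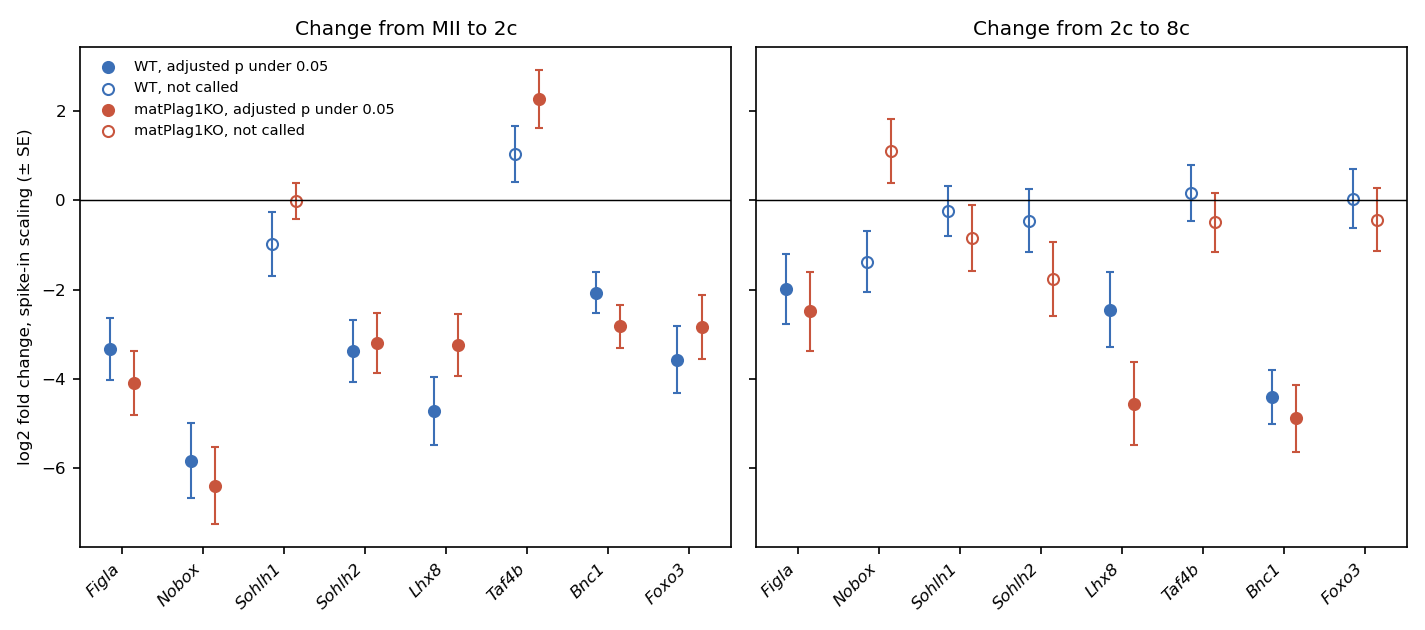
Log2 fold change of each member between MII and 2c (left) and between 2c and 8c (right) with spike-in scaling; points are edgeR estimates and bars their SE, blue for WT and red for matPlag1KO. Filled points have an adjusted p under 0.05; from MII to 2c Nobox has the lowest values (-5.84 and -6.40) and Taf4b lies above 0, and in the later step Bnc1 (-4.41 in WT) and Lhx8 (-2.45 and -4.56) fall while Foxo3 stays near 0; the matPlag1KO points of Bnc1 and Figla rest on groups at 0 counts and depend on the prior count.

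From 2c to 8c most called genes of the whole table were higher (31.9% against 16.2% lower in WT, 29.1% against 19.5% in matPlag1KO). No member was called higher, and 3 of 8 fell in each genotype, Bnc1, Lhx8 and Figla. The median log2 change of the 8 members was -0.91 in WT and -1.30 in matPlag1KO, against 0.53 and 0.30 over all tested genes.

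Bnc1 reached the limit of detection, with 1 count in the 15 WT 8c libraries and 0 in the 11 matPlag1KO libraries. Pooled over libraries and per spike-in count, WT 2c embryos held 64.5 times the level of WT 8c embryos, with a counting interval of 10.9 to 2611, and matPlag1KO 2c embryos held at least 12.7-fold more than 8c embryos, taking 3 counts over the group as the floor for a group at 0. The fitted log2 changes were -4.41 ± 0.61 in WT (adjusted p = 4.10e-09) and, in matPlag1KO, a value that depends on the prior count (adjusted p = 7.42e-08). Bnc1 thus fell in each step in both genotypes. Lhx8 went from 32 counts in 11 WT 2c embryos to 8 in 15 WT 8c embryos, and from 134 in 11 to 4 in 11 in matPlag1KO. Its log2 change was -2.45 ± 0.84 in WT (adjusted p = 0.0119) and -4.56 ± 0.94 in matPlag1KO (adjusted p = 2.97e-05), or -2.86 (adjusted p = 0.00873) in matPlag1KO without the wells that stood apart. Figla was left with 1 count in WT and 0 in matPlag1KO at 8c. Its calls rested on 6 counts in each 2c group (adjusted p = 0.0315 in WT, 0.0165 in matPlag1KO), and the WT call was lost without WT 2c replicate 11, 12 or 13, at -1.62, -1.60 and -1.60, and the matPlag1KO call without matPlag1KO 2c replicate 12 (adjusted p = 0.0719). In pooled counts the WT ratio of 2c to 8c was 9.92, with an interval of 1.20 to 456, and the matPlag1KO bound was at least 1.96-fold.

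Foxo3 and Taf4b were still counted in 8c embryos. Foxo3 had 4 to 63 counts in WT, with a median of 20, and 2 to 70 in matPlag1KO, with a median of 15, and its change from 2c was 0.04 ± 0.66 in WT (adjusted p = 0.991) and -0.43 ± 0.71 in matPlag1KO (adjusted p = 0.643). Taf4b had 0 to 18 counts in WT, with a median of 4, and 1 to 15 in matPlag1KO, with a median of 5, with a change of 0.18 ± 0.63 in WT (adjusted p = 0.849) and -0.49 ± 0.66 in matPlag1KO (adjusted p = 0.558). The intervals (95%) around the Foxo3 changes, -1.26 to 1.33 and -1.83 to 0.97, leave room for changes of more than 1 on the log2 scale in either genotype. With TMM scaling Foxo3 changed by -1.02 in WT (adjusted p = 0.0776) and -1.16 in matPlag1KO (adjusted p = 0.0637), and Taf4b by -0.82 (adjusted p = 0.202) and -1.27 (adjusted p = 0.0530), none of them called. With median-ratio factors the matPlag1KO changes of Foxo3 (-1.31, adjusted p = 0.0392) and Taf4b (-1.41, adjusted p = 0.0341) were called. Nobox, in contrast, was uneven among 8c embryos. WT libraries held 0 to 38 counts (median 1, 10 of 15 above 0) and matPlag1KO libraries 0 to 265 (median 2, 7 of 11 above 0). Its change from 2c was -1.37 ± 0.69 in WT (adjusted p = 0.0895) and 1.12 ± 0.72 in matPlag1KO (adjusted p = 0.190), neither of them called. Without the wells A5, D7 and F5 the values were -1.37 and -2.07, and as F5 was left out for its high Nobox counts nothing is read from these as a test. Sohlh2 was seen in 1 of 15 WT and 1 of 11 matPlag1KO 8c embryos, with 4 counts and 1 count.

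The second question was whether loss of maternal Plag1 changed these factors at a given stage. Genotypes were compared with TMM factors, which set each gene against the bulk of the embryo's transcripts, and levels are given as CPM on TMM library sizes. In oocytes none of the 8 members was called, against 0.781% of all tested genes, and none had an unadjusted p under 0.05, with DESeq2 also calling none. At 2c none was called, against 4.92% of all genes, and 1 member had an unadjusted p under 0.05, DESeq2 again calling none. At 8c 1 of 8 members was called, Nobox, against 1.74% of all genes, and DESeq2 also called Nobox. The plot of genotype differences gives these estimates with and without the wells that stood apart.

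**Figure D3:**
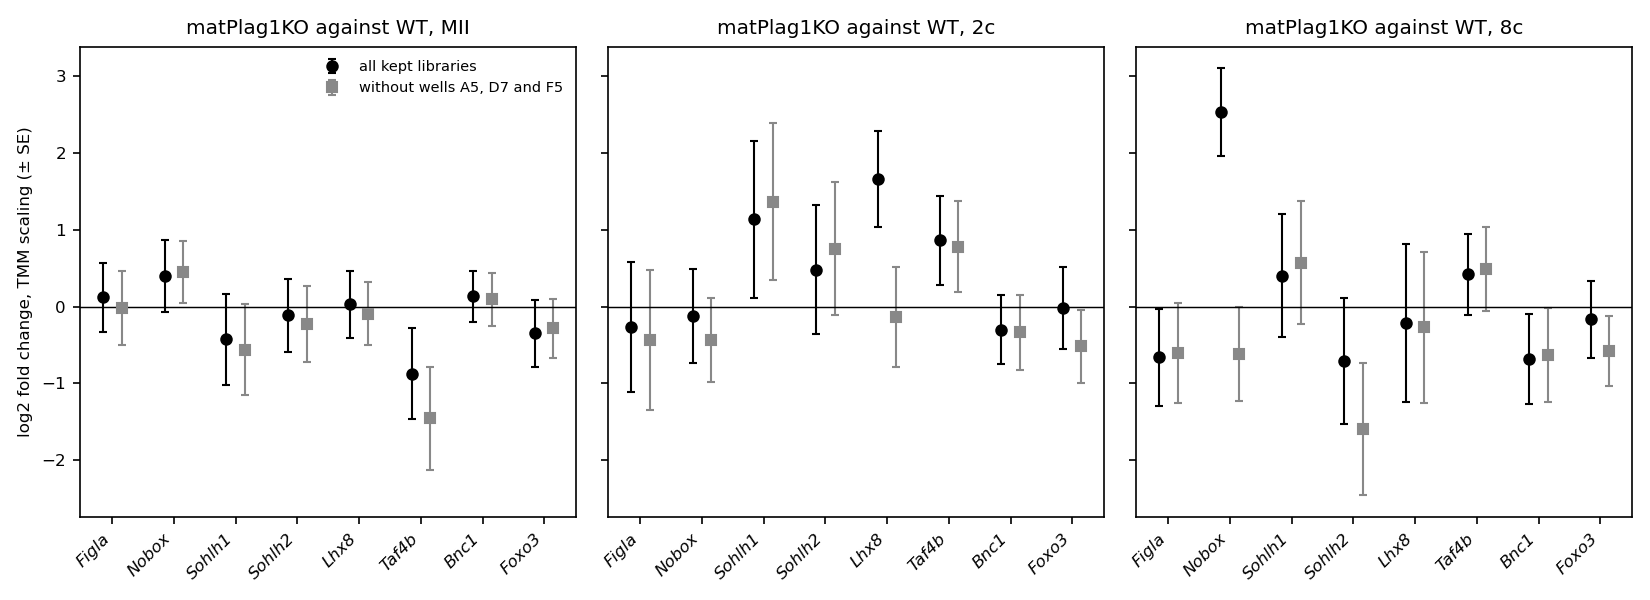
Log2 fold change of matPlag1KO against WT (vertical axis, TMM scaling, edgeR estimate with its SE) for each member at MII, 2c and 8c. Black circles use all kept libraries and grey squares leave out wells A5, D7 and F5. Nobox at 8c goes from 2.53 to -0.62 and Lhx8 at 2c from 1.67 to -0.13. F5 at 8c and D7 at 2c held only matPlag1KO libraries and were picked for these high values, so the shifts are no test.

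In oocytes the Nobox means were 1225 ± 642 CPM (n = 16) in WT and 1621 ± 1225 CPM (n = 14) in matPlag1KO, a log2 difference of 0.40 ± 0.47 (adjusted p = 0.902) with an interval (95%) of -0.52 to 1.33. Lhx8 was at 107 ± 121 and 110 ± 146 CPM, with a difference of 0.03 ± 0.44 and an interval of -0.83 to 0.89. Foxo3 differed by -0.34 ± 0.44 (interval -1.20 to 0.51), Bnc1 by 0.13 ± 0.33 (-0.51 to 0.77), Figla by 0.12 ± 0.45 (-0.76 to 1.00) and Sohlh2 by -0.11 ± 0.47 (-1.04 to 0.81). Each of these intervals still holds differences of more than 0.5 on the log2 scale. Taf4b had the most negative value, -0.87 ± 0.59 (adjusted p = 0.701), on 37 and 26 counts. The 2 plates gave differences of opposite sign for some members, none of them called. Foxo3 was at -1.68 ± 0.59 in plate A and 0.91 ± 0.52 in plate B (adjusted p = 0.180 and 0.409), Bnc1 at 0.96 ± 0.49 and -0.68 ± 0.51 (adjusted p = 0.410 and 0.575), and Taf4b at -2.05 ± 0.85 and 0.27 ± 0.77 (adjusted p = 0.282 and 0.973). The pooled values of these 3 genes thus average unlike plates. Lhx8 (0.31 and -0.23) and Figla (-0.20 and 0.54) also changed sign, and Nobox was at 0.58 and 0.14.

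In 2c embryos the median of Lhx8 was 15.6 CPM in WT and 15.4 CPM in matPlag1KO, and log2(CPM + 1) was 3.79 ± 1.34 and 3.98 ± 2.53 (SD, n = 11 each). The difference of 1.67 ± 0.62 was not called (adjusted p = 0.0969). The 2 matPlag1KO libraries of well D7 held 61 and 46 counts, 79.9% of the group's 134 counts, and the other 9 held 0 to 8. Without the wells that stood apart the difference was -0.13 (adjusted p = 0.994), which is no test, as D7 was picked for its Lhx8 counts. Taf4b was at 23.8 ± 18.9 CPM in WT and 44.1 ± 29.5 CPM in matPlag1KO, a difference of 0.86 ± 0.58 (adjusted p = 0.389). Nobox, Bnc1, Foxo3 and Figla differed by -0.12 ± 0.61, -0.30 ± 0.45, -0.02 ± 0.54 and -0.26 ± 0.85 on the log2 scale. Sohlh1, on 1 and 3 counts, and Sohlh2, on 4 and 7, differed by 1.14 ± 1.02 and 0.48 ± 0.84.

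In 8c embryos Nobox was at 13.5 ± 21.7 CPM in WT (n = 15) and 81.5 ± 166 CPM in matPlag1KO (n = 11), and the edgeR log2 difference was 2.53 ± 0.57 (adjusted p = 0.00743). The groups overlapped almost wholly. The matPlag1KO libraries in well F5 held 265 counts in plate A and 104 in plate B, together 93.4% of the group's 395 counts, while the other 9 held 0 to 9 counts and the WT libraries 0 to 38. The median was 2.39 CPM in WT and 8.61 CPM in matPlag1KO. Without wells A5, D7 and F5 the difference was -0.62 ± 0.62 (adjusted p = 0.711). At 8c F5 held only matPlag1KO libraries and was picked for its Nobox counts, so this change of sign is no test. The WT libraries of well F3, the highest of their group at 38 and 26 counts (66.0% of its 97), stayed in. The call held in 9 of 14 alternative settings, DESeq2 among them, all of which kept F5 and took libraries as independent. Without the F5 library of plate A (matPlag1KO 8c replicate 5) the difference was 1.46 (adjusted p = 0.173). Of 26 fits with 1 library left out, only this 1 lost the call. Within plates A and B it was 2.43 (adjusted p = 0.362) and 2.47 (adjusted p = 0.0776). The 2 F5 libraries were taken as independent in this call. With the well as a random block in limma-voom the difference was 1.00 and was not called (adjusted p = 0.665). That fit also models log values, whose means as log2(CPM + 1) were 2.40 ± 2.20 in WT and 3.35 ± 3.26 in matPlag1KO (SD). It was not run without the block, so the part of the block in the smaller value was not tested. In the 2 F5 libraries the 8-cell embryo markers summed to 2741 and 2090 CPM, against a median of 777 CPM in matPlag1KO 8c embryos, and the oocyte markers to 274 and 243 CPM, against a median of 166 CPM. The granulosa and cumulus markers summed to 1443 and 1175 CPM there, of which Nr5a2 (also expressed in 8c embryos) gave 1131 counts and Amhr2 27, while Fshr, Amh, Inha and Has2 were at 0, and the part of these levels in the Nobox value was not tested. The genotype difference at 2c did not differ from that at 8c beyond the threshold for Nobox (interaction -2.65 ± 0.84, adjusted p = 0.0666), and none of the 8 members was called in the interactions with 2c against MII (3.31% of all genes called) or 2c against 8c (2.3%), with 2 and 1 members at an unadjusted p under 0.05 and none called by DESeq2.

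The agreement between wells was checked directly, since wells at MII held opposite genotypes in the 2 plates. Over the 14 MII wells with a kept library in both plates, log2 CPM in plate A and plate B correlated at Pearson's r = 0.90 for Nobox, 0.88 for Lhx8 and 0.84 for Foxo3, as a description over wells that differ in depth. It was 0.59 for Bnc1, 0.52 for Figla and 0.41 for Taf4b, and 0.15 for Sohlh2 and -0.12 for Sohlh1. Foxo3 was highest at MII in well A5 of both plates (1450 CPM in a WT oocyte and 971 CPM in a matPlag1KO oocyte), and Lhx8 was highest in well B7 of both plates (501 CPM in matPlag1KO and 484 CPM in WT). Libraries of A5 were also the deepest oocyte libraries, with 2502421 and 1772844 gene counts. Over the 8 wells kept in both plates at 2c, 2 of them with opposite genotypes, r was 0.81 for Foxo3, 0.35 for Nobox and 0.31 for Lhx8. At 8c, where each of the 12 wells held the same genotype in both plates, the well and the genotype cannot be told apart, and r was 0.79 for Nobox and 0.55 for Foxo3. The levels of Nobox, Lhx8 and Foxo3 therefore varied among oocytes of a genotype along with well position, and the cause of that was not tested.

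**Figure D4:**
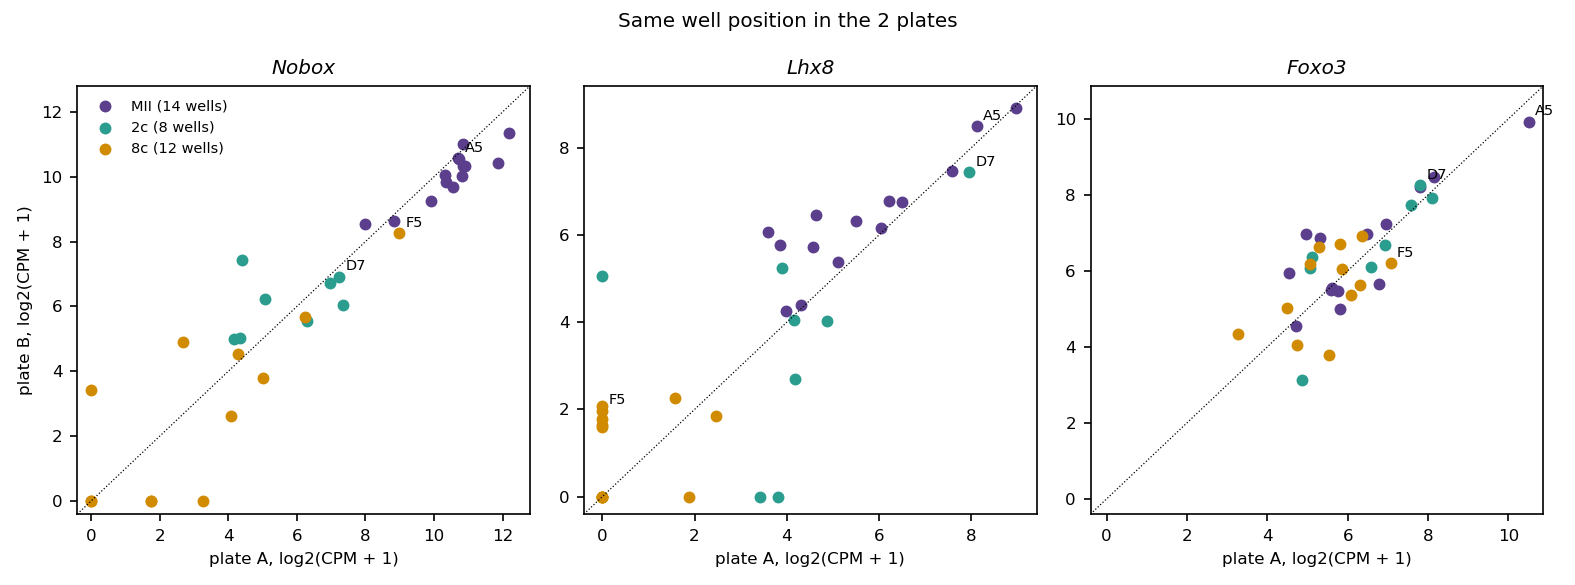
Nobox, Lhx8 and Foxo3 in plate A (horizontal) and plate B (vertical) for libraries in the same well position, as log2 of CPM with 1 added; each point is a well with a kept library in both plates, coloured by stage, and the dotted line marks equal values. Wells A5, D7 and F5 are named; at MII the wells hold opposite genotypes in the 2 plates and lie along the line (r = 0.90, 0.88 and 0.84).

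The genes around these factors were followed in lists drawn from textbook knowledge, with earlier results of these data known. Of 19 oocyte genes known to lie downstream of the factors, all 19 fell between MII and 2c in both genotypes. Their median log2 change was -4.74 in WT and -4.40 in matPlag1KO, against -1.46 and -1.42 over all tested genes. Of all tested genes 51.3% and 50.3% were called lower. The list is one of oocyte genes, and all 8 oocyte markers, some of them on it, also fell. These falls are therefore no test of the factors. H1foo, the oocyte linker histone, changed by -7.17 ± 0.69 on the log2 scale in WT and -6.19 ± 0.66 in matPlag1KO. Oas1d, an oocyte-specific member of the oligoadenylate synthetase family, changed by -6.08 ± 0.52 in WT, and Mos, the kinase that keeps the MII arrest, by -6.13 ± 0.93 in WT and -7.05 ± 0.95 in matPlag1KO. Padi6, of the cytoplasmic lattices, changed by -6.92 ± 0.57 in matPlag1KO. The zona genes had log2 changes of -5.09 (Zp1), -2.68 (Zp2) and -3.43 (Zp3) in WT, and -4.94, -3.73 and -4.92 in matPlag1KO. A link of these falls to E-boxes was not tested.

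In the later step, to 8c, WT had 10 called falls and 2 called rises among the 19, and matPlag1KO 14 and 2. Of all tested genes 16.2% and 19.5% were called lower, and 31.9% and 29.1% higher. Oosp1, an oocyte-secreted protein gene known as a NOBOX target, changed by -6.28 ± 0.42 in WT and -6.11 ± 0.48 in matPlag1KO. Uchl1, a deubiquitinase gene, changed by -4.73 ± 0.51 in WT, and Bmp15, an oocyte growth factor, by -5.57 ± 0.69 in matPlag1KO. Pou5f1, which the embryo transcribes anew, rose by 3.71 ± 0.48 in WT and 1.82 ± 0.46 in matPlag1KO, and Dppa3, an egg and embryo chromatin protein gene, by 1.69 ± 0.24 and 1.84 ± 0.26. Between genotypes, Padi6 (1.58 ± 0.30, adjusted p = 0.000551) and Nlrp14 (1.53 ± 0.35, adjusted p = 0.00762) were higher in matPlag1KO oocytes, where 0.781% of all genes were called. Padi6 was at 1194 ± 646 CPM (SD) in WT and 3561 ± 4063 CPM in matPlag1KO oocytes, and Nlrp14 at 145 ± 76.8 and 419 ± 320 CPM. Bmp15 was higher in matPlag1KO 2c embryos (1.83 ± 0.46, adjusted p = 0.0110) and Zp1 lower in matPlag1KO 8c embryos (-2.36 ± 0.61, adjusted p = 0.0238). In the interactions Padi6 was called for 2c against MII (-1.74 ± 0.48, adjusted p = 0.0262), and Zp1 (2.78 ± 0.79, adjusted p = 0.0372) and Pou5f1 (1.95 ± 0.54, adjusted p = 0.0306) for 2c against 8c. Of all genes 3.31% and 2.3% were called in these 2 interactions.

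Of 15 partners and cofactors (E proteins, their ID inhibitors, LDB adaptors and TFIID-related factors), 14 were tested. Between MII and 2c, WT had 9 called falls and 1 called rise, and matPlag1KO 12 and 1. Of all tested genes 51.3% and 50.3% were called lower, and 14.1% and 13.5% higher. The medians were -1.60 and -2.03, against -1.46 and -1.42 for all genes. The riser in both genotypes was Id1, which encodes an inhibitor of E proteins (3.02 ± 0.68 in WT and 2.17 ± 0.69 in matPlag1KO). Between 2c and 8c WT had 6 called falls and 2 called rises, and matPlag1KO had 3 and 1. Of all tested genes 16.2% and 19.5% were called lower in this later step, and 31.9% and 29.1% higher. Id3, of the same inhibitor family, rose by 8.04 ± 0.77 on the log2 scale in WT, from 2.36 ± 3.42 to 397 ± 335 CPM, and by 6.65 ± 0.74 in matPlag1KO. Tbpl2, the oocyte TBP relative, changed by -4.33 ± 0.60 in WT and went from 67 counts to 0 in matPlag1KO, at least a 21.9-fold fall. No partner was called between genotypes at any stage. Of 5 paralogs, 4 had a called fall and 1 a called rise to 2c in WT, against 2 and 1 in matPlag1KO. The shares of all genes given above for the step to 2c apply here too, and 5 genes are few to set against them. The riser was Foxo4 (3.45 ± 0.77 and 4.45 ± 0.80), while Foxo1 changed by -2.00 ± 0.47 and -2.17 ± 0.48. No paralog was called between genotypes.

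Of 20 genes of PI3K-AKT-FOXO3 signalling, 13 had a called fall and 2 a called rise to 2c in WT, and 14 and 2 in matPlag1KO. Their medians of -1.64 and -1.58 were near those of all genes (-1.46 and -1.42), of which 51.3% and 50.3% fell and 14.1% and 13.5% rose. Sgk3, a kinase related to AKT, was at 2 counts in WT oocytes and 0 in matPlag1KO oocytes and reached 23 and 27 counts at 2c, a rise of 3.22 ± 0.62 in WT and at least 11.8-fold in matPlag1KO. The deacetylase gene Sirt1 rose by 1.88 ± 0.56 and 2.36 ± 0.61, and the receptor gene Kit changed by -3.13 ± 0.59 and -2.29 ± 0.57. To 8c, WT had 7 called rises and 4 called falls, and matPlag1KO had 4 and 5, against 31.9% and 29.1% of all genes called higher and 16.2% and 19.5% lower. Sgk1, a further kinase of this family, rose by 4.33 ± 0.60 in WT and 3.10 ± 0.57 in matPlag1KO. None of the 20 was called between genotypes.

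Of 10 FOXO target genes, 5 had a called fall and 2 a called rise to 2c in WT, against 6 and 1 in matPlag1KO. The WT counts were at about the shares of all genes (51.3% lower, 14.1% higher), which in matPlag1KO were 50.3% and 13.5%. The medians were -1.27 in WT and -1.97 in matPlag1KO, against -1.46 and -1.42 for all genes. The stress gene Gadd45a was among the risers in both (1.44 ± 0.65 and 2.64 ± 0.69). To 8c, 3 fell and 3 rose in WT, against 4 and 3 in matPlag1KO. Of all tested genes 16.2% and 19.5% were called lower, and 31.9% and 29.1% higher. Bnip3, a mitophagy receptor gene, rose by 3.28 ± 0.39 in matPlag1KO. Between genotypes 1 of the 10 was called, at 2c, where 4.92% of all genes were called. This was Bcl6, which was named after its values were seen and had 0 counts in 11 WT embryos and 13 in 4 of 11 matPlag1KO embryos, at least a 3.84-fold difference (edgeR, adjusted p = 0.0266).

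**Figure D5:**
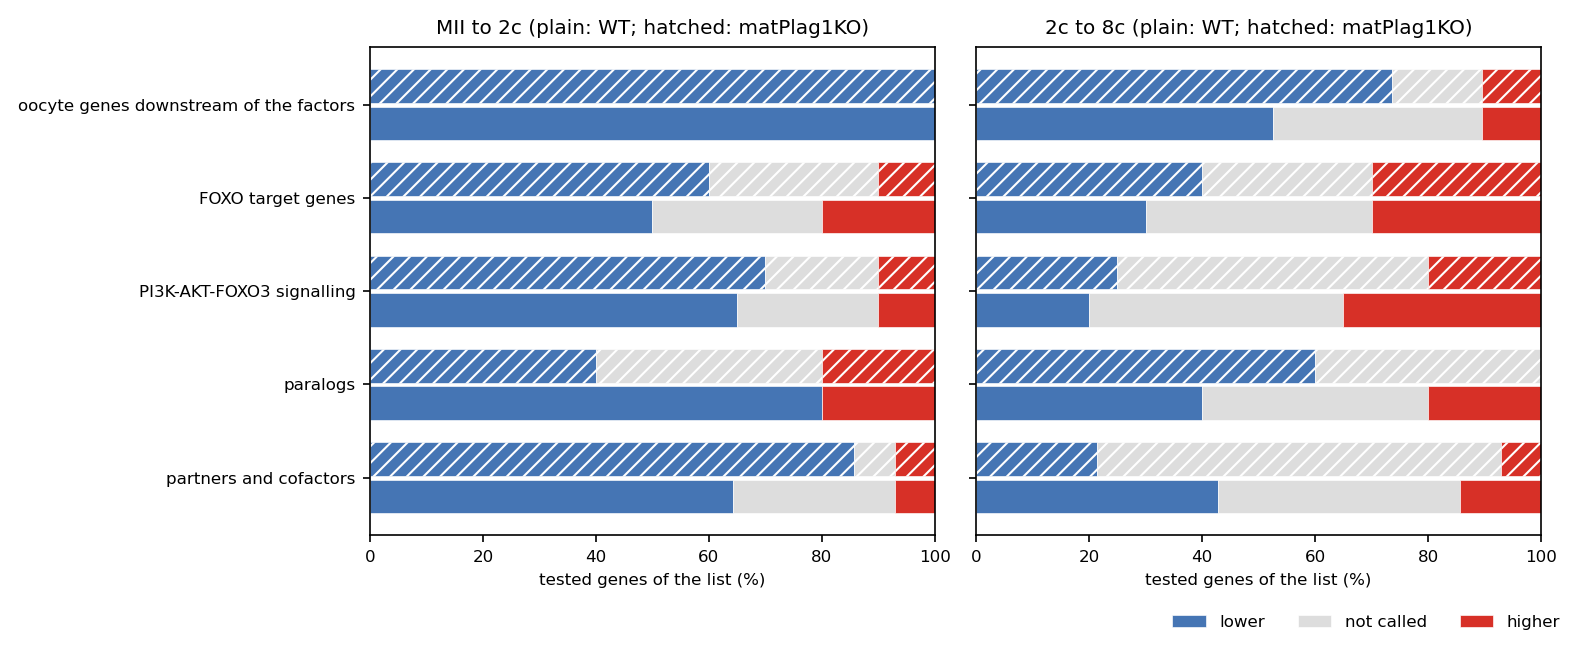
Share of the tested genes of each list (horizontal axis, percent) called lower (blue), not called (grey) or called higher (red) in the steps to 2c and to 8c, plain bars for WT and hatched bars for matPlag1KO. All 19 oocyte genes downstream of the factors fell from MII to 2c in both genotypes. Of all tested genes 51.3% in WT and 50.3% in matPlag1KO were called lower. In that step each of the other lists held at least 1 gene that rose.

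The members were also set beside other genes by their pattern over all 78 kept libraries, among 10838 genes averaging 10 CPM or more in some group. This likeness is mostly one of stage, since the libraries share 3 stages and 2 plates. Nobox was most like Oas1d (Pearson's r = 0.91), Nudt7 and E330021D16Rik, Bnc1 most like AY512915, Tmem232 and Btg4 (r = 0.91 each), and Lhx8 most like Itga8 (r = 0.87), Wdr20 and Ica1. Figla was most like Egfl6 (r = 0.83), D10Wsu102e and Enox2, and Sohlh2 most like Crabp2 (r = 0.80), Acp6 and Ice2. Taf4b, with its rise at 2c, was most like Slc16a6 (r = 0.77), Mta2 and Pi4k2a. Foxo3 had no close match, with Cic (r = 0.66), Kmt2c and Crebbp at the top, and for Sohlh1 the highest value was 0.43 (Tmem132c, followed by Lrrk2 and Islr2). Among oocytes alone Lhx8 and Foxo3 correlated with r = 0.70 over 30 libraries, above the other pairs of members, and both genes had their highest oocyte counts in well A5.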

How the data were processed

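Single oocytes and embryos were lysed, primed with oligo(dT) and sequenced from transcript 5′ ends with molecular identifiers, ERCC RNAs having been added with the reverse transcription mix. Each of 2 sequencing pools is called a plate here (A or B). TopHat alignment to mm9 and HOMER counting were done by the authors, who deposited raw counts, not normalized, for 90 libraries, 24422 genes and 92 ERCC RNAs. Only polyadenylated transcripts are captured, so the counts can miss transcripts with short tails.

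Here, 12 libraries with a median CPM under 1 were left out, and a gene was tested where 5 or more of the remaining 78 reached 1 CPM. A mean for each of the 6 groups was fitted in edgeR 4.0.16 (quasi-likelihood test, Benjamini-Hochberg adjusted p under 0.05, SE as the log2 change divided by the root of F), with TMM factors between genotypes and the spike-in total as library size between stages. Fitting steps were tested on simulated data. Copies of a library were checked for (lowest chi-square per degree of freedom 3.54 within a group). Counting intervals are exact at 95%, and cover counting error only, as does the floor, 3 counts, used where a group had none. Alternatives covered the scaling, DESeq2 1.42.0, the likelihood ratio test, the gene and library filters, the plates, and each library left out. The analyses without wells A5, D7 and F5, and without B7 too, and the limma-voom (limma 3.58.1) fit with the well as a random block were added after the data were seen. The members and gene lists were chosen with earlier results of these data known. Named list genes are the 3 largest called rises and falls per comparison with a mean of at least 10 CPM, beside genes named for their role in a sentence, and likeness is Pearson's r on log2(CPM + 1). Sequences were read from the NCBIM37 (mm9) genome.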

Additional observations from a re-analysis of the deposited data

How the results depend on the processing

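In oocytes, where each of 14 wells held opposite genotypes in the 2 plates, the deviations of paired wells correlated at a median of 0.31 across 10838 genes, 12 of 14 were above 0.1 and 12 of 14 plate A libraries matched their own well best, against a median of -0.11 for other wells. The labels give wells no meaning, and the main fit took all libraries as independent, with the block as an alternative. At 8c 9 of 12 plate A libraries matched their own well best, and both libraries of a well held the same genotype. The main p-values at 8c, and from 2c to 8c, count such pairs as separate replicates and may be too small. In a fit with a replicate block for wells and a plate term, 0 members were called at MII, as without it. At 8c the limma-voom fit with wells as a random replicate block called 0 members (Nobox 1.00, adjusted p = 0.665), but it changed the model as well as the block. Members called were also 0 in plate A alone, in plate B alone and in the fits without wells A5, D7 and F5, or A5, B7, D7 and F5. In both of these fits Nobox was -0.62 at 8c between genotypes and -2.07 from 2c to 8c in matPlag1KO, with 5 members called in that step, after its highest libraries were left out. The median-ratio factors gave 3 members called in matPlag1KO at the step to 2c and 6 at the step to 8c, each plate alone gave 1 from 2c to 8c in WT, and the likelihood ratio test called 1 (Nobox) for the genotype difference at 2c against 8c. The counts of members called between genotypes at MII and 2c were 0 under all alternatives run. With 1 library left out, the members called ranged from 0 to 1 for the genotypes at 8c and for 2c against 8c, from 2 to 5 for 2c to 8c in WT (5 without WT 8c replicate 6), and from 2 to 4 in matPlag1KO. Figla, Sohlh1 and Sohlh2 are limited by counts of a few per library.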
